A study of Mus musculus with 80 samples.

Results

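The opioid and tachykinin systems of the dorsomedial striatum were followed cell by cell through 10 genes, taken by name from the 25160 genes of the table. They are 4 peptide precursors (Penk, Pdyn, Tac1 and Nts), 4 opioid receptors (Oprm1, Oprd1, Oprk1 and Oprl1) and 2 tachykinin receptors (Tacr1 and Tacr3). The data were single-cell RNA-Seq profiles of 80 neurons of adult mice, sorted by fluorescence from dissected dorsomedial striatum into wells of 3 plates. Every mouse carried 2 reporter transgenes, Drd1a-TdTomato and Drd2-EGFP. Each BAC reporter lights up cells in which the regulatory sequence of its dopamine receptor gene is active. There were 40 cells sorted for TdTomato, called D1 MSN (medium spiny neurons of the direct pathway), and 40 cells sorted for EGFP. Of the EGFP cells, 2 held over 100 TPM of Chat, the acetylcholine-synthesizing enzyme. They are described apart as cholinergic interneurons (ChI), which left 38 D2 MSN of the indirect pathway. Values are TPM, by definition transcript counts scaled by length and to a fixed total per cell. The listed genes sum to between 506588 and 958040 TPM per cell, and how these TPM were computed is not given. The paper reports a bias of reads to the 3' end, so levels of different genes are compared only roughly. The labels name no animal for any cell, so each group stands as 1 sample, cells are not replicates, and no test between D1 and D2 MSN was made. Intervals are exact 95% Clopper-Pearson intervals and cover counting error over cells only.

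Striatal projection neurons release GABA together with peptides that are cut from larger precursors in the secretory pathway and packed into dense core vesicles. Neurons of the indirect pathway are known for enkephalin, and those of the direct pathway for substance P and dynorphin. Enkephalins act mainly on the mu and delta opioid receptors, dynorphins on the kappa receptor, nociceptin on the related Oprl1 receptor, and substance P on the NK1 receptor. These opioid receptors couple to inhibitory G proteins, whereas the tachykinin receptors excite the cells that carry them.

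Each precursor carries its active core more than 1 time, and a few of these copies are given here. They were read from the GENCODE M21 transcripts of GRCm38 within the longest open reading frame. Capitals mark the codons of the peptide core or of its C-terminal end, and lower case gives the neighbouring codons, which in Penk and Pdyn are largely basic codons. Paired basic codons are where precursors are cut, and in Pdyn those after the core belong to the longer dynorphin peptides themselves. Penk (chr4:4133531-4138819, minus strand) has 268 codons with 6 copies of the Met-enkephalin core and 1 copy of the Leu-enkephalin core. Pdyn (chr2:129686565-129699844, minus strand) has 248 codons with 3 copies of the Leu-enkephalin core and 0 of the Met-enkephalin core. Tac1 (chr6:7554879-7565834, plus strand) has 130 codons and 2 tachykinin ends, those of substance P and of neurokinin A. Nts (chr10:102481756-102490486, minus strand) has 169 codons and ends of 2 related peptides, neuromedin N and neurotensin.
Penk, first Met-enkephalin copy: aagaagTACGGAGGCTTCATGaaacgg
Penk, last Met-enkephalin copy: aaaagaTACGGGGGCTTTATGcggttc
Penk, Leu-enkephalin copy: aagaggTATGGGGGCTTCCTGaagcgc
Pdyn, first Leu-enkephalin core: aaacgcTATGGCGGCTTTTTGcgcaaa
Pdyn, last Leu-enkephalin core: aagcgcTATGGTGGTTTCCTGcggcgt
Tac1, substance P end: cagcagTTCTTTGGATTAATGggcaag
Tac1, neurokinin A end: gattccTTTGTTGGACTAATGggcaaa
Nts, neuromedin N end: aaaatcCCTTATATTCTGaaaagg
Nts, neurotensin end: agaaggCCCTACATTCTCaagagg

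The number of genes above 1 TPM ranged from 648 to 8657 over the 78 MSN, with medians of 5722 in D1 MSN and 4927.5 in D2 MSN, and was 10251 and 10912 in the ChI. The number of reads behind a cell's values cannot be read from TPM. The labels held against markers of both kinds of MSN. All 40 D1 MSN had more D1 than D2 markers above 1 TPM, out of 5 each, as did 32 of 38 D2 MSN in the opposite direction. Of the other 6 D2 MSN, 5 had equal numbers and 1 had fewer D2 than D1 markers. Their D1 counts came from Sfxn1, at up to 79.0 TPM, and Ebf1, at up to 2.27 TPM, and none of them held Drd1 above 1 TPM. The wells came from plate FACS051_5 (18 D1 and 16 D2 MSN), plate FACS086_4 (21 and 19) and plate FACS086_9 (1 and 3). No further batch is labelled. Of the D1 MSN, 3 stood apart from the rest. The cell in well B02 of FACS086_4 had 648 genes and Drd1 at 0. In well D04 of FACS051_5 the summed astrocyte markers (4 of 5 listed were in the table) came to 2344 TPM, with Drd1 at 2.03 TPM, against a median of 0 in both classes and a highest D2 value of 225 TPM. That in well C06 of FACS051_5 is described with the mixed cells. In the D2 MSN, the cell in well A12 of FACS086_9 had 1215 genes.

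**Figure D1:**
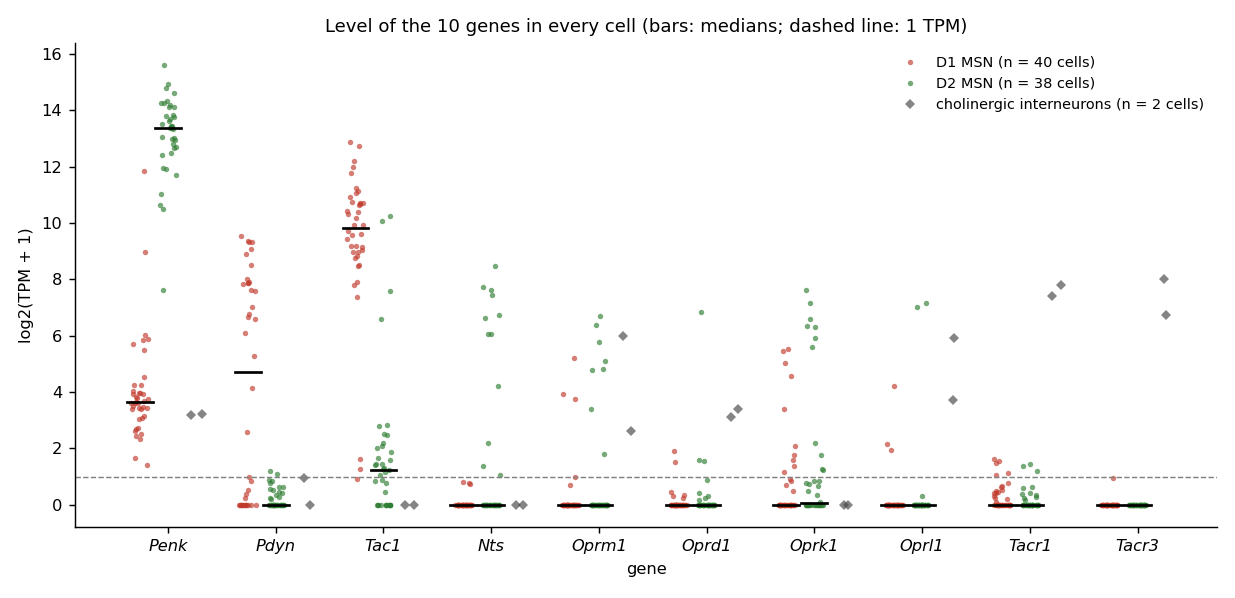
Level of each of the 10 genes in every cell, as log2(TPM + 1), for 40 D1 MSN (red), 38 D2 MSN (green) and 2 cholinergic interneurons (grey diamonds). Each point is 1 cell, black bars are medians and the dashed line is 1 TPM. Penk and Tac1 part the classes almost fully, Pdyn and Nts split their own class into cells with and without the gene, and the tachykinin receptors stand out in the interneurons alone.

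The 4 precursors divided between the classes. Penk and Nts were the precursors of D2 MSN, and Tac1 and Pdyn those of D1 MSN. Penk and Tac1 were found in nearly every cell of their class. Pdyn and Nts were present at high levels in a share of it and at or near 0 in the rest.

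Penk, the enkephalin precursor, ran from 196 to 50135 TPM in D2 MSN with a median of 10688 TPM. In D1 MSN it ran from 1.67 to 3676 TPM with a median of 11.4 TPM. Only 2 of 40 D1 MSN reached above the lowest D2 MSN, and within each large plate the classes did not overlap (highest D1 MSN 3676 and 63.9 TPM, lowest D2 MSN 5755 and 1427 TPM on FACS051_5 and FACS086_4). With a mean of 12438 TPM (SD 9655 over 38 cells), Penk ranked 7 among the 25160 genes in D2 MSN and made up 1.48% of the TPM listed for them. The log2 fold of its mean TPM + 1, D1 over D2, came to -6.69 (-6.16 for FACS051_5 alone and -9.28 for FACS086_4 alone). A single D1 cell held 76.7% of all Penk in that class, and the D1 mean was 120 TPM with it and 28.6 TPM without it. No D1 MSN was free of Penk. The low D1 values lay close to those of the ChI, at 8.05 and 8.33 TPM, and whether they come from the cells themselves was not tested. Penk overlaps the gene A830012C17Rik on the other strand in the annotation.

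Tac1, the precursor of substance P and neurokinin A, ran from 0.871 to 7398 TPM in D1 MSN with a median of 899 TPM. In D2 MSN it ran from 0 to 1218 TPM with a median of 1.37 TPM, which is 0.153% of the D1 median. Of the D1 MSN, 37 of 40 held over 100 TPM, and the other 3 held 0.871, 1.38 and 2.10 TPM. Those 3 cells lie under all 37 others of their class, and 2 of them are the cell with 648 genes and the cell with astrocyte markers. With a mean of 1478 TPM (SD 1688 over 40 cells), Tac1 ranked 38 among all genes in D1 MSN. The log2 fold of Tac1 came to 4.39 over all MSN, 7.66 for FACS051_5 and 4.30 for FACS086_4. Its D2 mean was 7.22 TPM on the former plate with the highest cell and 1.37 TPM without it. On the latter plate it was 68.6 TPM with the highest cell and 12.3 TPM without it. In the ChI Tac1 was at 0 in both.

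Pdyn, the dynorphin precursor, ran from 0 to 750 TPM in D1 MSN with a median of 27.3 TPM. A total of 22 among the 40 D1 MSN exceeded 1 TPM (55%, 38.5 to 70.7%), with a median of 230 TPM. Values around the limit were graded, with the highest D1 value at or below 1 TPM at 0.967 TPM and the lowest above it at 5.01 and 16.8 TPM. Of the D1 MSN, 13 were at 0 and 17 were above 100 TPM. In D2 MSN it ran from 0 to 1.32 TPM, and 2 of 38 cells were above 1 TPM. Its log2 fold was 7.01, with 7.16 and 6.88 on the large plates. The share of D1 MSN with Pdyn was 44.4% (8 of 18) on FACS051_5 and 61.9% (13 of 21) on FACS086_4, with intervals that overlap widely (21.5 to 69.2% and 38.4 to 81.9%).

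Nts, the precursor of neurotensin and neuromedin N, exceeded 1 TPM in 12 D2 MSN out of 38 (31.6%, 17.5 to 48.7%) and stood at 0 in the other 26. Where present it ran from 1.07 to 351 TPM with a median of 81.7 TPM, and 5 cells held over 100 TPM. None of the D1 MSN exceeded 1 TPM (0 of 40, a count compatible with a share of at most 8.81%), and their highest value was 0.751 TPM. The mean of Nts was 33.9 TPM for D2 MSN and 0.0532 TPM for D1 MSN, a log2 fold of -5.05 with -5.79 and -4.23 on the large plates. The D2 cells with Nts came from FACS051_5 (7 of 16) and FACS086_4 (5 of 19). Drd2 itself was at 0 in 5 of the 12, which held between 5755 and 13212 TPM of Penk. Such a 0 was not particular to cells with Nts. Over all 38 D2 MSN, Drd2 exceeded 1 TPM in 26. Cells without Nts, such as well A12 of FACS051_5 and well C12 of FACS086_4, also had Drd2 at 0.

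Against the whole table, 8 of the 10 genes averaged 1 TPM or more across MSN, and 7 of these were past 2-fold over all MSN and on both large plates. Pdyn and Tac1 were higher in D1 MSN, where 5.84% of the 15671 genes with such an average passed the same limits. Penk, Nts, Oprm1, Oprk1 and Oprl1 were higher in D2 MSN, where 4.30% passed. The 3 receptors no longer passed with a pseudocount of 10 TPM or with means of log2 values, and Tac1 no longer passed after scaling to the upper quartile. These limits are of size and are no test. The receptors were found in few cells, and among the 6224 genes found in as few MSN as they were (5 to 21 cells) 8.95% passed as higher in D1 MSN and 6.49% as higher in D2 MSN. The median log2 fold of the 8 genes was -1.93, and that of all genes was 0.09.

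**Figure D2:**
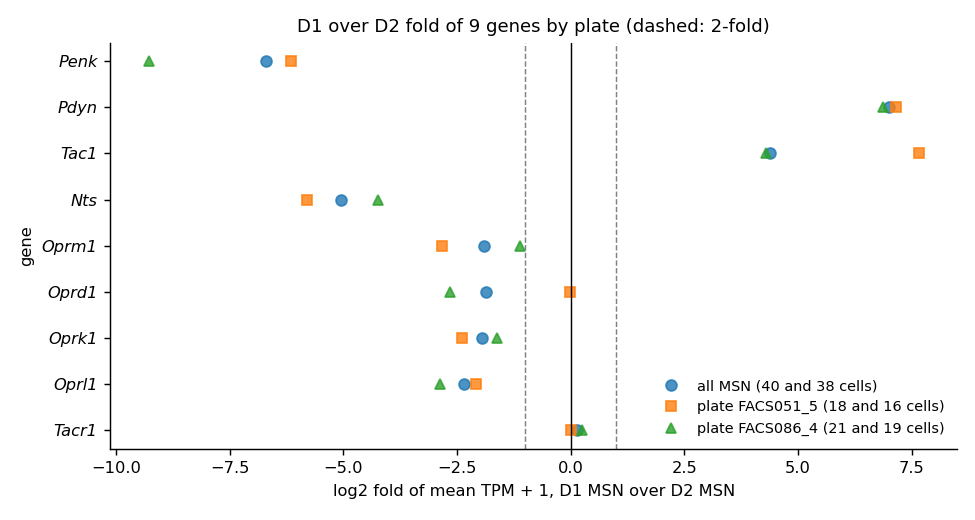
Log2 fold of mean TPM + 1, D1 MSN over D2 MSN, for 9 of the 10 genes, over all MSN (circles) and on the plates FACS051_5 (squares) and FACS086_4 (triangles). Dashed lines mark 2-fold, and Tacr3, listed at 0 in every D2 MSN, has no fold. The precursors lie beyond 4 on either side in all 3 sets, the opioid receptors between -2.87 and -0.01, and Tacr1 near 0.

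The opioid receptors were sparsely detected in both kinds of MSN at a limit of 1 TPM, and a receptor not found in a cell cannot be called absent. At least 1 of the 4 exceeded 1 TPM in 15 D1 MSN out of 40 (37.5%, 22.7 to 54.2%). Among the 38 D2 MSN there were 17 such cells (44.7%, 28.6 to 61.7%). The intervals overlap over most of their length. Above 10 TPM the counts were 7 of 40 (17.5%, 7.34 to 32.8%) and 12 of 38 (31.6%, 17.5 to 48.7%). Above 0 TPM they were 20 of 40 (50%) and 25 of 38 (65.8%). Cells with more than 1 of these receptors were few, 2 of 40 D1 MSN and 6 of 38 D2 MSN, and no MSN held all 4. The number of opioid receptors in a cell went up with its number of genes above 1 TPM, with a Spearman rho of 0.34 over 40 D1 MSN and 0.39 over 38 D2 MSN. Both are counts of genes above 1 TPM in the same cell, and what raises both was not tested.

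Oprk1, the kappa receptor (chr1:5588466-5606131), was the most often found. It exceeded 1 TPM in 25% of D1 MSN (10 of 40, 12.7 to 41.2%) and in 28.9% of D2 MSN (11 of 38, 15.4 to 45.9%). In D1 MSN it ran from 0 to 45.3 TPM with a median of 0, and in D2 MSN from 0 to 195 TPM with a median of 0.0343 TPM. At a limit of 10 TPM the shares were 10% (4 of 40) and 18.4% (7 of 38). The means were 4.14 TPM and 18.7 TPM (log2 fold, D1 over D2, -1.94, with -2.40 and -1.61 on the large plates). Among cells above 1 TPM the median was 6.43 TPM for D1 and 59.4 TPM for D2 MSN. The 7 highest Oprk1 values of all MSN were in D2 MSN. It was at 0 in both ChI.

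Oprm1, the mu receptor (chr10:6758506-7038198), exceeded 1 TPM in 7.5% of D1 MSN (3 of 40, 1.57 to 20.4%) and in 21.1% of D2 MSN (8 of 38, 9.55 to 37.3%). The highest D1 value was 36.4 TPM and the highest D2 value 103 TPM, and the median was 0 in both. The means of 1.62 and 8.87 TPM gave a log2 fold of -1.91, with -2.82 and -1.12 on the large plates, and of -1.49 without the highest cell. Oprm1 overlaps Ipcef1 and Gm10945 on the other strand. The ChI held 5.08 and 62.1 TPM.

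Oprl1, the nociceptin receptor (chr2:181715016-181720985), exceeded 1 TPM in 3 D1 MSN out of 40, at 2.89, 3.48 and 17.6 TPM, and in 2 D2 MSN out of 38, at 129 and 143 TPM. Its log2 fold of -2.35 therefore rests on 2 D2 cells, 1 on each large plate, and was -1.49 without the higher of them. Both ChI held it, at 12.3 and 59.2 TPM.

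Oprd1, the delta receptor (chr4:132110726-132144486), exceeded 1 TPM in 2 D1 MSN out of 40, at 1.88 and 2.80 TPM, and in 3 D2 MSN out of 38, from 1.93 to 114 TPM. A single D2 cell held 95.3% of the D2 sum. The log2 fold was -1.86 over all MSN, -0.01 on FACS051_5 and -0.01 over all MSN without that cell, and so Oprd1 did not pass the limits. The ChI held 9.54 and 7.57 TPM.

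The tachykinin receptors were near 0 in MSN and high in the ChI. Tacr1, the NK1 receptor of substance P (chr6:82402334-82560104), held 169 and 222 TPM in the ChI. In D1 MSN it ran from 0 to 2.08 TPM and exceeded 1 TPM in 5 cells out of 40 (12.5%, 4.19 to 26.8%). In D2 MSN it ran from 0 to 1.71 TPM and exceeded 1 TPM in 3 cells out of 38 (7.89%, 1.66 to 21.4%). The log2 fold of Tacr1 between the MSN classes was 0.15, from means of 0.314 and 0.187 TPM. Tacr3, the NK3 receptor that prefers neurokinin B (chr3:134829007-134934579), held 105 and 260 TPM in the ChI. No MSN exceeded 1 TPM (0 of 40 D1 and 0 of 38 D2 MSN, counts compatible with shares of at most 8.81% and 9.25%), and its only value above 0 was 0.939 TPM in a D1 MSN. The values of Tacr1 and Tacr3 in the ChI do not overlap those of any MSN. The ChI came from 1 plate and had more genes above 1 TPM than any MSN, and the part of that in the receptor levels was not tested.

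**Figure D3:**
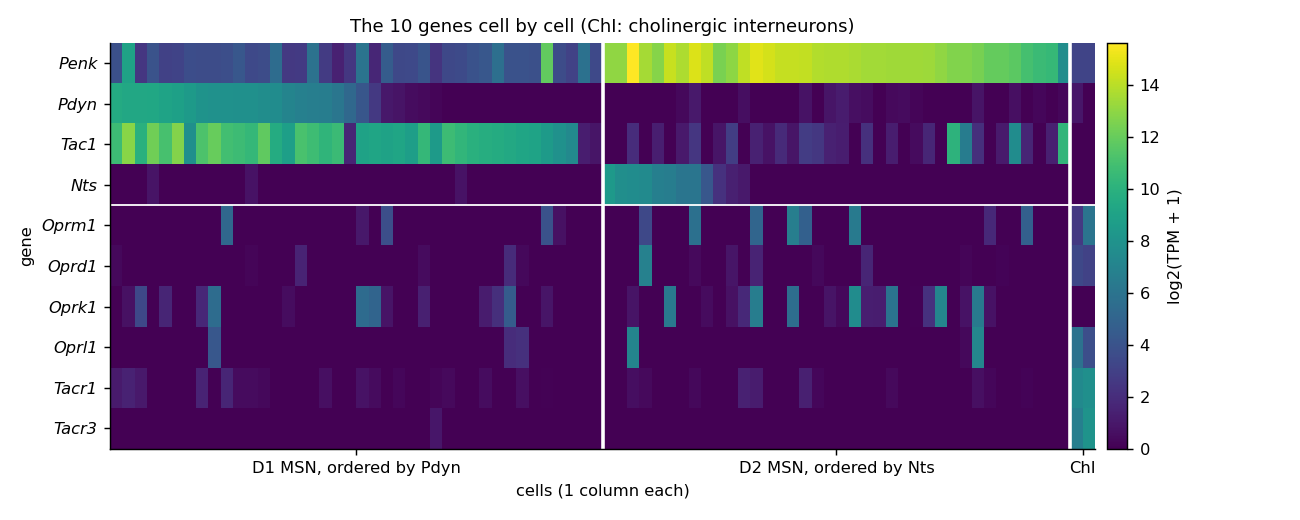
The 10 genes in each of the 80 cells, 1 column per cell, coloured by log2(TPM + 1). D1 MSN are ordered by falling Pdyn and D2 MSN by falling Nts, with the 2 cholinergic interneurons (ChI) at the right. Tac1 fills all but 3 of the D1 columns and Penk all D2 columns, while the receptors appear as scattered single cells.

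Within single cells, dynorphin and substance P precursors were found together. All 22 D1 MSN with Pdyn above 1 TPM also held Tac1 above 1 TPM, which is 22 of 40 D1 MSN with both (55%, 38.5 to 70.7%), and 17 D1 MSN held Tac1 without Pdyn. No D1 MSN held Pdyn without Tac1. At 100 TPM, 17 of 40 D1 MSN held both, 20 held Tac1 without Pdyn, and 3 held neither. Since Tac1 was above 1 TPM in 39 of 40 cells, overlap at this limit could hardly be otherwise, and the levels say more. Over the 40 D1 MSN the Spearman rho of Pdyn and Tac1 was 0.61, with 0.53 over 18 cells on FACS051_5 and 0.68 over 21 cells on FACS086_4. Of the 8640 genes above 1 TPM in at least 25% of D1 MSN, Tac1 had the highest rho with Pdyn, followed by Ppp1r2 (0.60), an inhibitor of protein phosphatase 1, and Rab3b (0.58), a vesicle GTPase. The number of genes per cell had a rho of -0.21 with Pdyn and 0.19 with Tac1. As Pearson correlations of log2 values, Pdyn with Tac1 came to 0.45, and the number of genes to 0.08 with Pdyn and 0.56 with Tac1. On the large plates the latter was 0.38 (FACS051_5) and 0.78 (FACS086_4). The part of the number of genes in the link of Pdyn and Tac1 was not tested. These are descriptions over cells that share class and plates, and carry no p.

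The genes most like Tac1 over the D1 MSN were Rab14 (rho 0.65), Cyp46a1 (0.62) and Nlgn2 (0.62). Pdyn itself came to 0.61. Rab14 is a GTPase of endosomal traffic, Cyp46a1 the cholesterol 24-hydroxylase of neurons and Nlgn2 the neuroligin of inhibitory synapses. For Penk over the D2 MSN they were Hspa8 (0.76), Ndrg4 (0.74) and Psap (0.74). The number of genes above 1 TPM had a rho of 0.69 with Penk, 0.68 with Hspa8 and 0.76 with Ndrg4, so these genes and Penk moved with the number of genes found in a cell. Penk also had a rho of -0.37 with the EGFP fluorescence of the sorted cell and 0.41 with Drd2. Both values pool the plates. The mean Penk of D2 MSN was 17827 TPM on FACS051_5, 9543 TPM on FACS086_4 and 2030 TPM on FACS086_9. The part of the plate in these 2 rho was not tested. For Nts the most alike were Rrp9 (0.63), Fam161b (0.61) and Snrpb2 (0.58), and for Oprk1 they were Ola1 (0.60), Mast3 (0.59) and Lin7a (0.58) in D1 MSN and Faf2 (0.63), Ecsit (0.61) and A230050P20Rik (0.58) in D2 MSN. No gene stood in both Oprk1 lists, but each holds only the top genes of 8640 (D1 MSN) or 7250 (D2 MSN) compared. Lists this short would rarely share a gene by chance, so the lack of one says nothing about a difference between the classes. What rho the highest of so many genes would reach without any link was not tested.

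**Figure D4:**
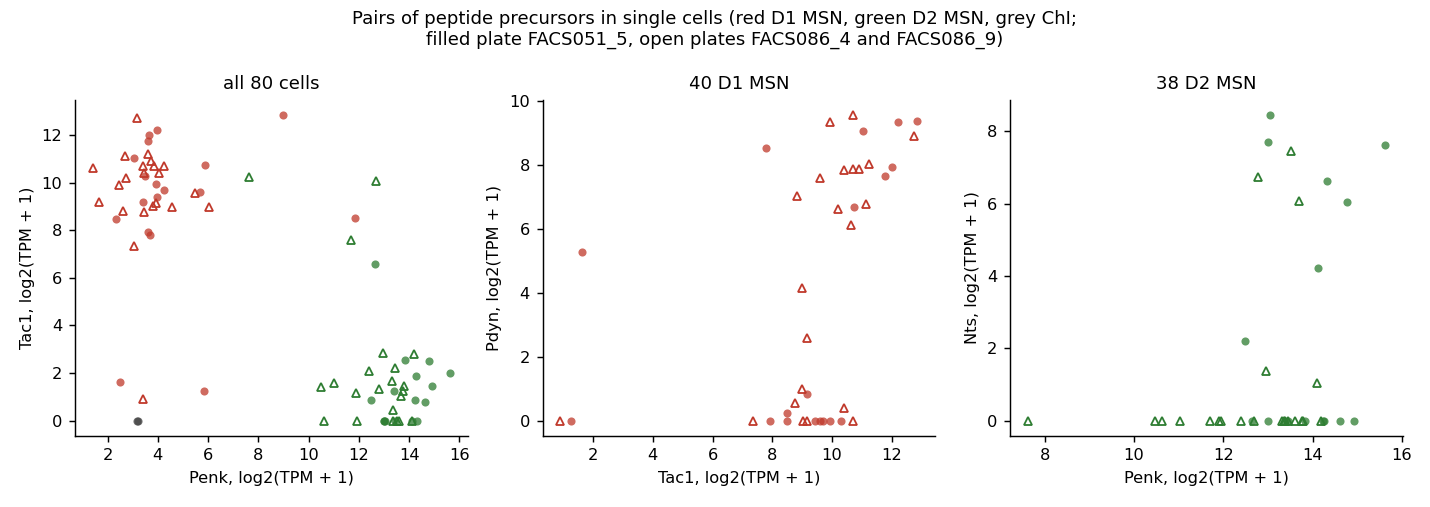
Pairs of precursors in single cells, each axis log2(TPM + 1): Tac1 against Penk in all 80 cells, Pdyn against Tac1 in 40 D1 MSN, and Nts against Penk in 38 D2 MSN. Red is D1 MSN, green D2 MSN and grey cholinergic interneurons, and filled symbols are plate FACS051_5. Cells high in both Penk and Tac1 are few, and Pdyn and Nts each have many cells at 0 and others that reach high levels.

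In D2 MSN, all 12 cells with Nts also held Penk, since every D2 MSN did. At 100 TPM, 5 D2 MSN held Penk and Nts, 3 held Penk and Tac1, and 30 held Penk alone of the 4 precursors. No D2 MSN held Nts and Tac1 both above 100 TPM. Nts was above 1 TPM in 5 of the 22 D2 MSN with Tac1 above 1 TPM (22.7%, 7.82 to 45.4%) and in 7 of the 16 others (43.8%, 19.8 to 70.1%), shares whose intervals overlap. Penk and Nts levels had a rho of 0.23 over 38 D2 MSN, with 0.05 and 0.21 on the large plates.

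Enkephalin and substance P precursors met at high levels in 5 MSN, each named because it held over 100 TPM of the other class's precursor. In D1 MSN there were 2. Well C06 of FACS051_5 held 3676 TPM of Penk and 361 TPM of Tac1, with Drd1 at 297 TPM, Drd2 at 5.74 TPM, Adora2a at 0.168 TPM and Pdyn at 0. That cell also held 5059 TPM of Tac2, the neurokinin B precursor, and 14.3 TPM of Oprm1. Its EGFP and TdTomato signals were 51 and 1649 in instrument units. Well A04 of FACS051_5 held 500 TPM of Penk beside 663 TPM of Pdyn and 7398 TPM of Tac1, the highest Tac1 of all cells. It had all 5 D1 markers and none of the 5 D2 markers above 1 TPM.

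In D2 MSN, 3 of 38 cells held Tac1 above 100 TPM (7.89%, 1.66 to 21.4%). Well C05 of FACS086_4 held 1082 TPM of Tac1 beside 6558 TPM of Penk, with Adora2a at 135 TPM, Gpr6 at 523 TPM and Drd1 at 0.304 TPM. Its Drd2 was at 18.4 TPM, and Sp9 and Gpr52 were at 0. Well C09 of FACS086_4 held 192 TPM of Tac1 beside 3306 TPM of Penk and had 225 TPM of summed astrocyte markers, the highest of the D2 MSN. Its Adora2a was at 113 TPM and its Sp9 at 3.02 TPM. Drd2 was at 0.858 TPM in that cell, and Gpr6 and Gpr52 were at 0. Well A12 of FACS086_9 held 1218 TPM of Tac1 and 196 TPM of Penk, the lowest Penk of its class, with Gpr6 at 267 TPM and Drd1 at 0. Adora2a was at 62.9 TPM in that cell, Drd2, Sp9 and Gpr52 were at 0, and Chat was at 10.8 TPM. None of the 3 held a D1 marker above 1 TPM or Pdyn above 1 TPM. Just below the limit, the cell in well B10 of FACS051_5 held 95.0 TPM of Tac1 and 6434 TPM of Penk, and the next D2 MSN was at 6.07 TPM. The 3 cells above the limit had 3651, 4617 and 1215 genes above 1 TPM, under the class median of 4927.5. Their TdTomato signals were 53, 130 and 59 in instrument units. On the same plates, the lowest D1 MSN of FACS086_4 had 1787 (well B02), and the only D1 MSN of FACS086_9 had 3013.

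Few cells held a peptide precursor beside the receptor that its products bind. Penk with Oprm1 or Oprd1 was found in 9 of 38 D2 MSN (23.7%, 11.4 to 40.2%), in 3 of 16 and 5 of 19 cells on the large plates. All 38 D2 MSN held Penk above 100 TPM, so this is only the count of D2 MSN with either receptor. In D1 MSN the same receptors were found in 5 of 40 cells, and 1 of these held Penk above 100 TPM. Pdyn with Oprk1 was found in 6 of 40 D1 MSN (15%, 5.71 to 29.8%). Oprk1 was above 1 TPM in 6 of 22 D1 MSN with Pdyn (27.3%, 10.7 to 50.2%) and in 4 of 18 without it (22.2%, 6.41 to 47.6%), a difference well inside the intervals. In D2 MSN the 11 cells with Oprk1 and the 2 cells with Pdyn were all different cells.

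Tac1 with Tacr1 was found in 5 of 40 D1 MSN (12.5%, 4.19 to 26.8%). Tac1 was above 1 TPM in 39 of 40 D1 MSN, so this overlap could hardly be otherwise. All 5 also held Pdyn above 1 TPM, which is 5 of 22 cells with Pdyn (22.7%, 7.82 to 45.4%) against 0 of 18 without (up to 18.5%). The intervals overlap, and all 5 Tacr1 values were between 1.09 and 2.08 TPM. In D2 MSN, Nts and Oprm1 were found together in 2 of 38 cells. In 1 of these, in well B03 of FACS086_4, there were 175 TPM of Nts, 114 TPM of Oprd1 and 9.62 TPM of Oprm1. Opioid receptors also met in single MSN, 2 D1 and 6 D2 MSN in all. Among D2 MSN, well C03 of FACS051_5 held 3 of them, Oprm1 at 33.3 TPM, Oprk1 at 95.2 TPM and Oprd1 at 1.93 TPM. Well A02 of FACS086_4 held 195 TPM of Oprk1 and 81.4 TPM of Oprm1. Well C04 of FACS086_4 held 81.1 TPM of Oprk1 and 143 TPM of Oprl1, and well B09 of FACS051_5 held 103 TPM of Oprm1 and 47.8 TPM of Oprk1. Penk in these 4 cells was at 30976, 12539, 5408 and 19331 TPM. In D1 MSN, well D01 of FACS051_5 held 45.3 TPM of Oprk1 and 17.6 TPM of Oprl1, and well B03 of FACS051_5 held 22.6 TPM of Oprk1, 2.89 TPM of Oprl1 and 2.80 TPM of Oprd1.

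**Figure D5:**
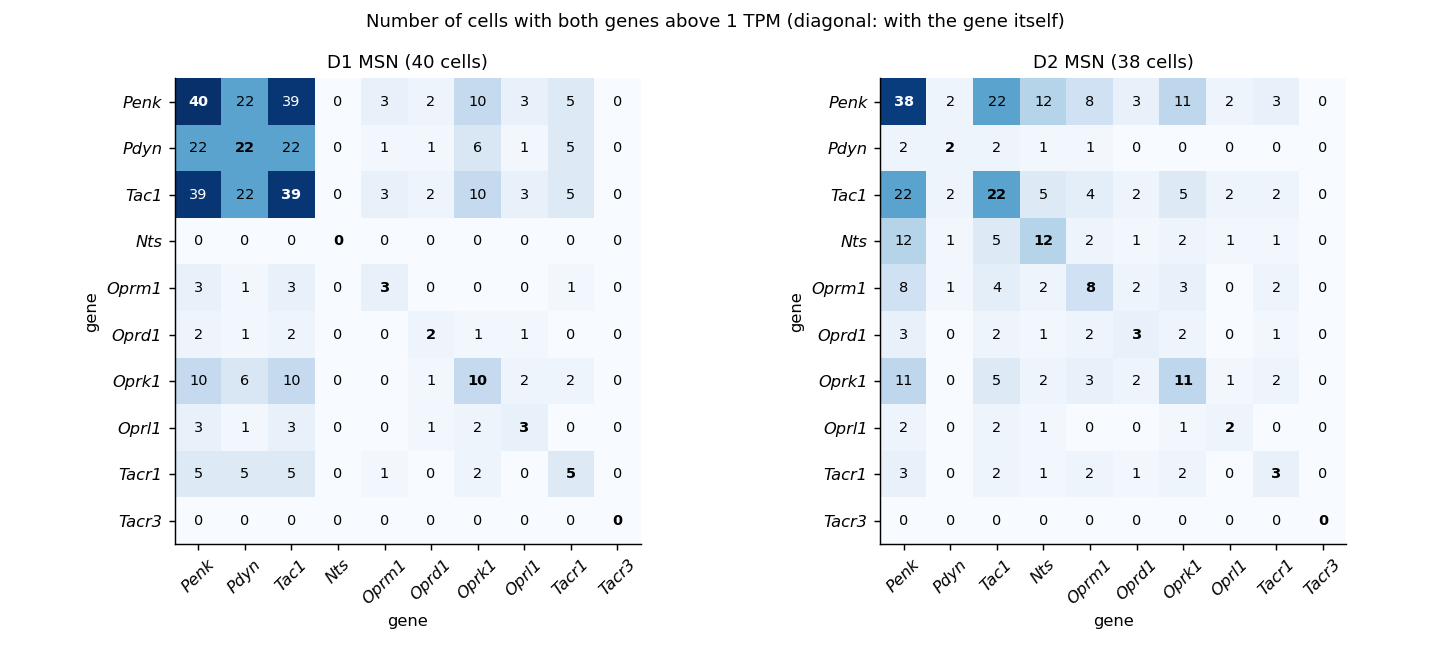
Number of cells with both genes of a pair above 1 TPM, in 40 D1 MSN (left) and 38 D2 MSN (right), with the number of cells that held the gene itself on the diagonal. Rows and columns are the 10 genes. Pdyn and Tac1 share 22 D1 MSN, Penk and Nts share 12 D2 MSN, and no pair with an opioid receptor and Pdyn exceeds 6 cells.

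Of 9 further opioid, tachykinin and neurotensin genes, 7 were in the table and 5 reached a mean of 1 TPM, and 0 of the 5 passed the limits in either direction (median log2 fold 0.46), which is no result about them beside background shares of 5.84% and 4.30%. Tac2 had a mean of 127 TPM in D1 MSN, which came almost wholly from the cell in well C06. Ntsr2, a neurotensin receptor of astrocytes, had a mean of 32.2 TPM in D1 MSN, of which the cell in well D04 with astrocyte markers held 1172 TPM. Sort1, the sortilin that also binds neurotensin, had means of 20.2 and 14.5 TPM. Of 13 other striatal peptides, 5 were in the table, 3 reached the mean and 0 passed. Cartpt had a mean of 26.9 TPM in D2 MSN and a median of 0.

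The counts of the next lists stand near the background of 5.84% of genes higher in D1 MSN and 4.30% higher in D2 MSN, or rest on few cells, and nothing is read from them. Of 20 genes that cut and pack the precursors (processing and dense core vesicles), 1 passed, Cadps2, a priming factor of these vesicles, with means of 2.55 and 0.147 TPM for D1 and D2 MSN (median log2 fold of the list -0.07). It was at 0 in all D2 MSN of FACS086_4. Cpe, the carboxypeptidase that trims the basic residues, had medians of 761 and 620 TPM in D1 and D2 MSN. Pcsk2, the convertase that cuts at paired basic residues, had medians of 61.4 and 65.6 TPM, whereas Pcsk1, the other main convertase of neurons, had a median of 0 in both. In the ChI Pcsk1 was at 42.1 and 57.2 TPM. Of 10 tested peptidases, 0 passed as higher in D1 MSN and 2 as higher in D2 MSN. They were Ece2 (means 0.181 and 14.6 TPM) and Prep (1.63 and 9.04 TPM), both with a median of 0 in either class and above 1 TPM in at most 4 cells of a class. Mme, the neprilysin that degrades enkephalin and substance P, had means of 47.7 and 32.8 TPM.

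Of 18 tested G proteins, arrestins and effectors, 1 passed as higher in D1 MSN and 0 as higher in D2 MSN. Of all tested genes 5.84% and 4.30% did, so nothing is read from this count. The gene was Adrbk1, a kinase of activated receptors (means 14.8 and 1.04 TPM). Gnao1, the inhibitory alpha subunit that is abundant in brain, had medians of 129 and 187 TPM in D1 and D2 MSN, and Adcy5, the adenylyl cyclase of striatum, 71.8 and 53.0 TPM. Oprm1, Pdyn and Tac1 also mark striosomes, the patches of striatum rich in mu receptor. In a list of 9 striosome markers that includes these 3 genes, 3 passed as higher in D1 MSN (Tac1, Pdyn and Asic4) and 1 as higher in D2 MSN (Oprm1). Of 6 matrix markers, 0 passed, a count that the background shares would also give.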

How the data were processed

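Cells of double-transgenic mice were sorted into plates, amplified with the SMARTer v3 kit, which does not mark strand, and sequenced on a MiSeq. The authors deposited a table of TPM values, 25160 genes by 80 cells. The submitters' processing notes name STAR 2.5.0, featureCounts 1.5.1 and the build mm10 (GRCm38). How TPM were computed from counts is not given in the sources used here, and listed genes sum to between 506588 and 958040 TPM per cell, and where the rest went is not stated. The study reported usable data from fewer cells than the table holds, and all 80 were kept.

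From the TPM values, a cell was counted as holding a gene above 1 TPM. Folds are log2((mean TPM in D1 MSN + 1)/(mean TPM in D2 MSN + 1)) and understate changes of low genes. A gene passed when its fold exceeded 2 over all MSN and on both plates FACS051_5 and FACS086_4 in 1 direction, among those that averaged 1 TPM or more. No test was made, because cells are not replicates. The methods name 3 animals in all, and no source used here ties a cell or plate to an animal. The genes named are the 10 members, members of the lists that passed and at most 3 others per list, the 3 genes of highest Spearman rho for each precursor in its class and for Oprk1, and cells with over 100 TPM of the other class's precursor. Cells named for holding a pair of receptors, and the values of Tac2, Ntsr2 and Cartpt by cell, were chosen after their values were seen. The members, lists and the Chat limit were chosen with earlier results of these data known. Shares carry exact binomial intervals. Coding windows were found by a search of the longest open reading frame in GENCODE M21 transcripts. Steps were tested on simulated data. Analyses used Python 3.11.15, pandas 2.3.3 and scipy 1.17.1. Alternatives were another pseudocount, log means, other scalings, other limits, single plates, and cells left out or kept.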

Additional observations from a re-analysis of the deposited data

How the results depend on the processing

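The 7 genes past 2-fold stayed 7 without cells under 2000 genes, with the cholinergic interneurons, with 0.1 TPM as pseudocount, with listed genes rescaled to a common sum, with no filter on low values, and, as an alternative chosen after seeing the data, without the wells D04, B02 and A12 that stood apart. They were 6 after scaling to the upper quartile and 5 at a mean of at least 10 TPM. With a pseudocount of 10 TPM or with means of log2 values they were 4, the precursors Penk, Pdyn, Tac1 and Nts, and no receptor passed. After scaling to the upper quartile the log2 fold of Tac1 was reversed, at -2.03, because the cell in well A12 of FACS086_9, whose upper quartile was 0.662 TPM, then held 169240 units of Tac1. With the interneurons kept among the D2 cells, the log2 fold of Tacr1 was reversed, at -3.06. The share of D1 MSN with at least 1 opioid receptor was 17.5% at a limit of 10 TPM, and that of D2 MSN was 65.8% at a limit of 0 TPM. The share of D2 MSN with Tac1 above 100 TPM was 0% on FACS051_5, 0 of 16 cells. Of 99 alternative folds of single genes, 76 lay within the spread of the plates, 21 moved in the same direction and 2 reversed. Of 130 alternative shares of single genes, 115 stayed within their interval. No paired analysis was possible because no test was made and no cell is tied to an animal, and the D1 over D2 values within each large plate stand in the report. Reads per cell are not given by TPM, so a receptor not found in a cell cannot be called absent.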

Other observations

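The cell in well C06 of FACS051_5 held the precursors of both enkephalin (Penk, 3676 TPM) and neurokinin B (Tac2, 5059 TPM). Its receptor Tacr3 was at 0 in that cell and at 105 and 260 TPM in the 2 cholinergic interneurons. A further Drd2-EGFP cell, in well C06 of FACS086_4, held 1019 TPM of Cartpt, the precursor of the CART peptide, with 10507 TPM of Penk. The cell in well C09 of FACS086_4, 1 of the 3 D2 MSN with Tac1 above 100 TPM, also held 47.6 TPM of Pomc, the precursor of beta-endorphin. A D1 MSN in well B07 of FACS051_5 had Drd1 at 0 with 366 TPM of Pdyn and 222 TPM of Tac1. These cells were picked after their values were seen, and each is a single observation with no test.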
